A study of Mus musculus and Homo sapiens with 65 samples.

Results

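A set of 10 transcripts of the mouse egg and early embryo were followed across 9 RNA-seq libraries of late 2-cell embryos: the oogenesins Oog1, Oog2, Oog3 and Oog4, the neighbouring genes Omt2a and Omt2b, and Gm1965, Rbm38, Spin1 and Ccdc6. The first 6 were taken by name. The last 4 were selected on their FPKM in wild-type embryos, which was high, so their wild-type levels are a description and carry no test. All 10 were present in the tables of 32287 genes, and all 10 were among the 13137 genes that passed the filter on low values (a level of at least 1 in at least 2 of the 9 libraries). Levels are in FPKM, fragments scaled to transcript length and to the mapped fragments of the library.

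The embryos had been grown in G1 plus medium to the late 2-cell stage. The libraries fall into 4 groups. Embryos treated with alpha-amanitin, an inhibitor of RNA polymerase II, gave 2 libraries. Zygotes injected with fluorescein-tagged antisense morpholino oligonucleotides against Kdm5a and Kdm5b, which encode H3K4 demethylases, gave 2 libraries (Kdm5a+b morpholino). Zygotes injected with control morpholinos carrying 5 mismatched bases gave 2 libraries (mismatch control), and wild-type embryos gave 3. No source used here gives the strain, the number of embryos in a library, or the dose and route of alpha-amanitin. The labels number the libraries of a group as replicates without saying whether they came from separate litters or collections. The p-values set differences between groups only against the spread of these libraries within groups, which may be technical. The series holds 65 samples, and those outside these groups were not analysed here.

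A fully grown mouse oocyte is transcriptionally silent and carries a stock of stored mRNA into the embryo. Around the 2-cell stage much of that stock is broken down while the embryonic genome begins to be transcribed, and a block of RNA polymerase II keeps the new transcripts from appearing. Oogenesins are leucine-rich-repeat proteins of the PRAME family made in female germ cells. Omt2a and Omt2b take their names from oocyte maturation. Spin1 is a reader of H3K4me3 first described as an abundant maternal protein of the mouse egg, Rbm38 is an RNA-binding protein that acts on mRNA stability and is induced by p53, and Ccdc6 is a coiled-coil protein of the DNA damage response. Gm1965 is annotated as a long intergenic non-coding RNA.

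Oog1 lies on the plus strand of chromosome 12 (mm10, 87602688 to 87608845). The other oogenesins lie on chromosome 4, Oog4 on the minus strand at 143437164 to 143450324, Oog3 on the minus strand at 144157557 to 144162663 and Oog2 on the plus strand at 144190719 to 144196934. Their promoters are shown because these 4 genes, on 2 chromosomes, shared sequence just before the start site. The RefSeq promoter table (GRCm38.p6) holds 250 bases before and 50 after each start. It had an entry for all 10 genes. Each line below gives 116 bases, all before the annotated start, written 5′ to 3′ on the gene's own strand. The capitals mark the longest stretch found in all 4 windows, TTCAGCTGAAA, and the TATATA that follows it. The positions are chr12:87602549-87602664 (plus strand) for Oog1, chr4:144190577-144190692 (plus strand) for Oog2, chr4:144162675-144162790 (minus strand) for Oog3 and chr4:143450347-143450462 (minus strand) for Oog4.
Oog1: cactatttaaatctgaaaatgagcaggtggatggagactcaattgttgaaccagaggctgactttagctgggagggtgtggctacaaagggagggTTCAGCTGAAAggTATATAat
Oog2: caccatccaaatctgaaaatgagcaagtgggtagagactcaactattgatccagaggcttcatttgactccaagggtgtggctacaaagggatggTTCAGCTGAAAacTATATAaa
Oog3: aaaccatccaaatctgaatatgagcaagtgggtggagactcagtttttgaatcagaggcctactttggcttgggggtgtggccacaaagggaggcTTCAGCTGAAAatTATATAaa
Oog4: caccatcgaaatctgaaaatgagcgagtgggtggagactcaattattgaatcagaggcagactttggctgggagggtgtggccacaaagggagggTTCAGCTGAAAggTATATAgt

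The shared stretch began at position -21 in Oog1, -45 in Oog2, -44 in Oog3 and -43 in Oog4, counted from the RefSeq start. On either strand it was found before the start in 14 of 32851 promoter windows (0.0426%). It contains the E-box CAGCTG, which alone was present in 13.0% of all windows, while the general E-box CANNTG was in 66.2% and TATATA in 5.25%. Among the 250 bases before the start, pairs of oogenesins were identical at 63.9% (Oog1 and Oog2) to 76.9% (Oog2 and Oog4) of aligned positions, against 46.4% for Omt2a and Omt2b. Neither the stretch nor TATATA occurred in the windows of the other 6 genes, with the first listed window taken for Spin1. The 14 windows belonged to 13 genes. Beside the oogenesins, those with a tested level were Gm2042, an Oog1-like gene on the same chromosome, and the PRAME-family genes C87499, Gm13084 and Gm13089. Their log2 changes with alpha-amanitin against wild type were 0.70, 0.09, 0.52 and 0.45, and none of them passed the test. A match in these windows is a description of the letters and shows no binding.

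How much of each transcript is unique bears on its value. Of the 50-base words in the Oog1 transcripts (GENCODE M21), 89.0% also occurred in transcripts of another gene, chiefly Gm2042 (85.8%). The share was 33.4% for Oog2 (30.1% in Gm13084), 19.7% for Oog3 (18.9% in Gm4350) and 0.707% for Oog4. Omt2a and Omt2b shared 37.0% and 35.2% of their words, each with the other gene. For Spin1 and Ccdc6 the shares were 2.54% and 0.0157%, and for Gm1965 and Rbm38 they were 0. No source used here says how the authors' counting divided reads between copies, and the Oog1 level above all is uncertain for that reason.

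Across each library the deposited levels of all genes summed to between 197489 and 235763 FPKM. The 2 alpha-amanitin libraries had 7977 and 7935 genes at 1 FPKM or more, against 10611 to 11228 in the other 7. A list of 10 genes that mark the late 2-cell embryo, among them Zfp352 and Zscan4d, summed to 8.90 and 5.36 FPKM with alpha-amanitin, 388 and 449 with Kdm5a+b morpholino, 418 and 372 in mismatch controls and 287, 378 and 397 in wild type. The 8 oocyte genes listed summed to 648 and 723 FPKM with alpha-amanitin and to 281 to 384 in the other libraries. Bmp15 was the largest part, at 463 and 487 FPKM with alpha-amanitin and 154 to 229 FPKM elsewhere. Zp2 and Padi6 were also higher in both alpha-amanitin libraries than in any other, while the ranges of Gdf9, Zp1, Zp3, Nlrp5 and Ooep overlapped. Of the genes listed for other cells, Inha and Foxl2 (follicle cells), Prm1 (sperm) and Hbb-bs and Hbb-bt (blood) were at 0 in all 9 libraries. Others on these lists were not. Amhr2 (follicle cells) was at 7.12 to 11.98 FPKM outside alpha-amanitin and at 0.00683 and 0 FPKM with it. Among sperm genes, Tnp1 reached 5.44 FPKM in wild-type replicate 3 and Odf1 4.21 FPKM in wild-type replicate 2. Among blood genes, Hba-a2 reached 5.72 FPKM in Kdm5a+b morpholino replicate 2 and Hba-a1 4.62 FPKM in wild-type replicate 1. The list sums were 0.62 and 0.44 with alpha-amanitin and 10.3 to 14.7 elsewhere for follicle cells, at most 5.96 for sperm, 0.352 to 10.97 for blood, and 1.43 and 3.14 with alpha-amanitin and 23.1 to 65.4 elsewhere for oviduct, where Epcam reached 58.5 FPKM. The part of these differences in the results was not tested. Kdm5a was at 19.5 and 15.3 FPKM with Kdm5a+b morpholino and at 12.8 and 9.44 FPKM in mismatch controls. Kdm5b was at 38.1 and 27.6 FPKM with Kdm5a+b morpholino and at 55.3 and 39.6 FPKM in mismatch controls. Neither difference passed the test, and since a morpholino can block a protein without removing its mRNA, these levels do not check the knockdown.

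Levels were compared on the log2(FPKM + 1) scale with limma, in 1 fit of the 4 groups, with Benjamini-Hochberg adjustment over all 13137 genes, and a gene passed at an adjusted p under 0.05. FPKM is a share of a library, so a change in the amount of a transcript per embryo cannot be told apart from a change in the rest of the library, nor from a change in the number of cells. With alpha-amanitin against wild type 29.4% of all genes passed, 4.31% as higher and 25.1% as lower, that is 566 higher and 3299 lower. The split was 1716 higher and 1806 lower when the libraries were forced to one distribution (quantile normalization). The median log2 change of all genes was -0.56, and 0.17 after quantile normalization.

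**Figure D1:**
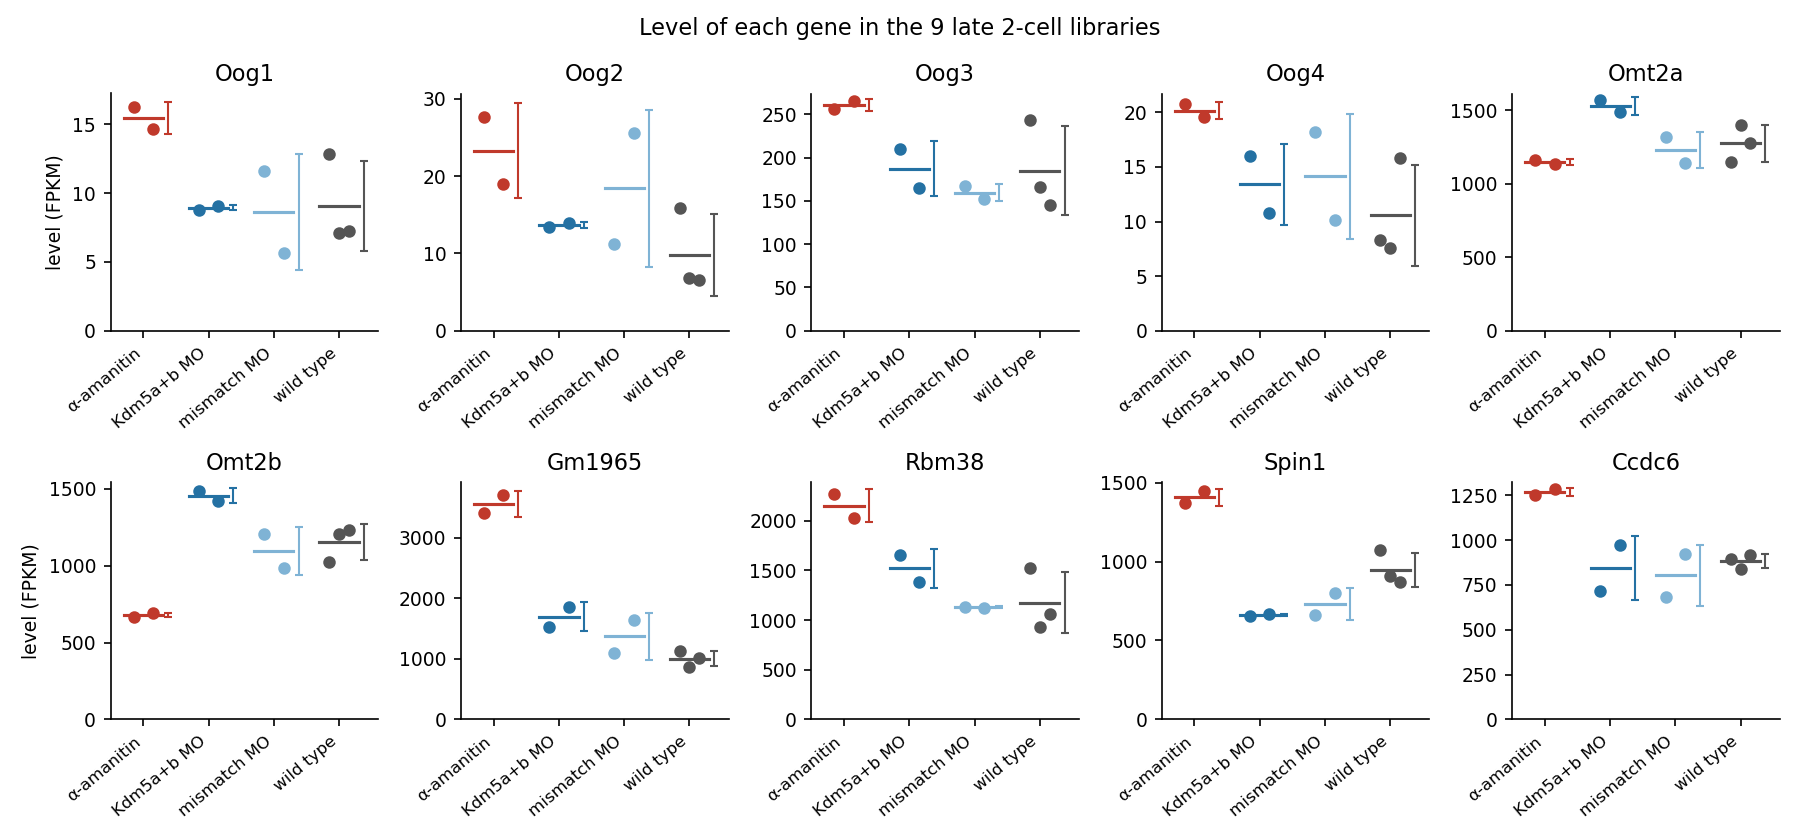
Level in FPKM (vertical axis, linear, from 0) of each of the 10 genes in the 9 libraries, by group. Points are libraries, lines are group means and bars beside them are 1 SD. The 2 alpha-amanitin libraries lie above all 3 wild-type libraries in every panel except Omt2a, where the ranges overlap, and Omt2b, where they lie below.

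In wild-type embryos the level fell into 3 tiers, which is a description, since 4 genes of the highest tier were selected for their wild-type level. Omt2a had the highest, 1273 ± 124 FPKM (SD, n = 3), rank 3 of all 32287 genes, followed by Rbm38 (1174 ± 308), Omt2b (1154 ± 115), Gm1965 (1005 ± 126), Spin1 (949 ± 107) and Ccdc6 (883 ± 38.7). The libraries of each pair of neighbours in that order overlapped. Above Omt2a by wild-type mean stood Zbed3 at 3135 FPKM, between Omt2b and Gm1965 stood Vimp at 1105, between Spin1 and Ccdc6 stood Mdm4 at 939, and just below Ccdc6 came RP23-374K9.2 at 684 FPKM. Oog3, at 185 ± 51.6 FPKM, ranked 95 and formed a tier of its own. Oog4 (10.6 ± 4.60 FPKM), Oog2 (9.78 ± 5.30) and Oog1 (9.07 ± 3.24) had levels that did not differ beyond their spread and ranked between 4293 and 4761. In alpha-amanitin embryos the order among the abundant genes was another one, with Gm1965 first (3567 ± 213 FPKM, SD, n = 2), then Rbm38 (2150 ± 167), Spin1 (1407 ± 55.4), Ccdc6 (1269 ± 22.0), Omt2a (1147 ± 18.6) and Omt2b (679 ± 15.01), with no overlap of libraries between neighbours. Together the 10 genes made up 5.29% and 5.06% of summed FPKM with alpha-amanitin, 3.41% and 3.39% with Kdm5a+b morpholino, 2.82% and 3.16% in mismatch controls and 3.23%, 2.73% and 2.86% in wild type.

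The deposited tables give a lower and an upper bound with each level. Oog1 to Oog4 and Omt2b lay inside theirs in all 9 libraries. Rbm38 lay above its upper bound in all 9 (2268 FPKM against a bound of 1923 in alpha-amanitin replicate 1) and Spin1 just below its lower bound in all 9 (1368 FPKM against 1379 in the same library). Gm1965 lay below its lower bound in 6 libraries, Ccdc6 below in 5 and Omt2a above in 1. The rank of Rbm38 among the genes is therefore less certain than its libraries' spread shows, while the same offset recurred in every group.

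All 4 oogenesins were higher in both alpha-amanitin libraries than in any wild-type library, and none of them passed the test. Across all genes 13.4% had such non-overlapping higher ranges. Oog3, the most abundant of the family here, was at 256 and 265 FPKM with alpha-amanitin, 210 and 165 with Kdm5a+b morpholino, 167 and 152 in mismatch controls and 243, 166 and 145 in wild type. Wild-type replicate 1 came close to the alpha-amanitin level, and the other 2 wild-type libraries sat with the injected embryos. The log2 change against wild type was 0.53 (SE 0.24, adjusted p = 0.128), a mean level 1.41 times as high.

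Oog2 was at 27.6 and 18.9 FPKM with alpha-amanitin, 13.4 and 13.9 with Kdm5a+b morpholino, 11.2 and 25.6 in mismatch controls and 15.9, 6.84 and 6.61 in wild type. Its mismatch libraries stood far apart, and one of them reached the alpha-amanitin range. The log2 change against wild type was 1.25 (SE 0.47, adjusted p = 0.0666). Oog1 was at 16.3 and 14.6 FPKM with alpha-amanitin, 8.80 and 9.08 with Kdm5a+b morpholino, 11.6 and 5.65 in mismatch controls and 12.8, 7.12 and 7.28 in wild type. No library of another group reached the alpha-amanitin range. The log2 change against wild type was 0.75 (SE 0.41, adjusted p = 0.197). Gm2042, the gene that holds most of the Oog1 words, was at 27.2 and 25.3 FPKM with alpha-amanitin and at 19.7, 16.2 and 12.2 FPKM in wild type, a log2 change of 0.70 (SE 0.31, adjusted p = 0.120). It too was higher in both alpha-amanitin libraries without passing. Oog4 was at 20.7 and 19.6 FPKM with alpha-amanitin, 16.04 and 10.8 with Kdm5a+b morpholino, 18.2 and 10.1 in mismatch controls and 8.30, 7.55 and 15.9 in wild type. In each other group 1 library came near the alpha-amanitin level. The log2 change against wild type was 0.94 (SE 0.41, adjusted p = 0.115).

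Relative to the median of all genes, the 4 log2 changes against wild type were 1.08 (Oog3), 1.81 (Oog2), 1.31 (Oog1) and 1.49 (Oog4). They were positive under each of the 16 other settings tried. Oog1, Oog2 and Oog4 passed after quantile normalization (adjusted p = 0.0373, 0.0271 and 0.0265). Without wild-type replicate 1, which was the highest wild-type library for Oog1, Oog2 and Oog3, Oog2 passed with a log2 change of 1.63 (adjusted p = 0.0224) and Oog3 with 0.74 (adjusted p = 0.0295).

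Omt2b was lower in alpha-amanitin embryos than in every other library, and its neighbour Omt2a was not. Omt2b, on chromosome 9 (plus strand, 78327589 to 78329620), was at 669 and 690 FPKM with alpha-amanitin, 1489 and 1423 with Kdm5a+b morpholino, 1205 and 987 in mismatch controls and 1022, 1206 and 1235 in wild type. The alpha-amanitin libraries agreed closely and lay well under the lowest of the rest. Against wild type the log2 change was -0.76 (SE 0.15, adjusted p = 0.00372) and the mean level 0.588 times that of wild type. Relative to the median of all genes the change was -0.20. Omt2b was the 1 gene of the 6 taken by name that passed as lower, against 25.1% of all genes, and non-overlapping lower ranges were found for 41.1% of all genes. The call was lost when no filter was set (adjusted p = 0.227) and without the trend in limma's variance model (adjusted p = 0.112).

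Omt2a (chromosome 9, minus strand, 78311972 to 78314797) was at 1160 and 1134 FPKM with alpha-amanitin, 1570 and 1484 with Kdm5a+b morpholino, 1315 and 1140 in mismatch controls and 1148, 1397 and 1275 in wild type. The alpha-amanitin range overlapped those of wild type and mismatch controls. Against wild type the log2 change was -0.15 (SE 0.14, adjusted p = 0.470), and it was 0.01 when levels were rescaled to TPM. Its lowest value under the 16 other settings was -0.59 against wild type and -0.71 against mismatch controls, so the size of the Omt2a change depended on the processing. The ratio of Omt2b to Omt2a within a library was 0.576 and 0.608 with alpha-amanitin, 0.949 and 0.959 with Kdm5a+b morpholino, 0.917 and 0.865 in mismatch controls and 0.890, 0.863 and 0.969 in wild type. Being taken within a library, the ratio does not depend on how that library was scaled. The ratio was lower in both alpha-amanitin libraries than in any other library, and it was chosen after the values were seen. An exact permutation test of the log2 ratio, with the one-sided p doubled, gave p = 0.2 for alpha-amanitin against wild type and p = 0.0556 against the other 7 libraries together. These are the smallest values that this doubling allows with 10 and 36 arrangements. Reads from the shared sequence of the 2 genes may have been divided between them in the authors' counting, and the part of this in the ratio was not tested.

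**Figure D2:**
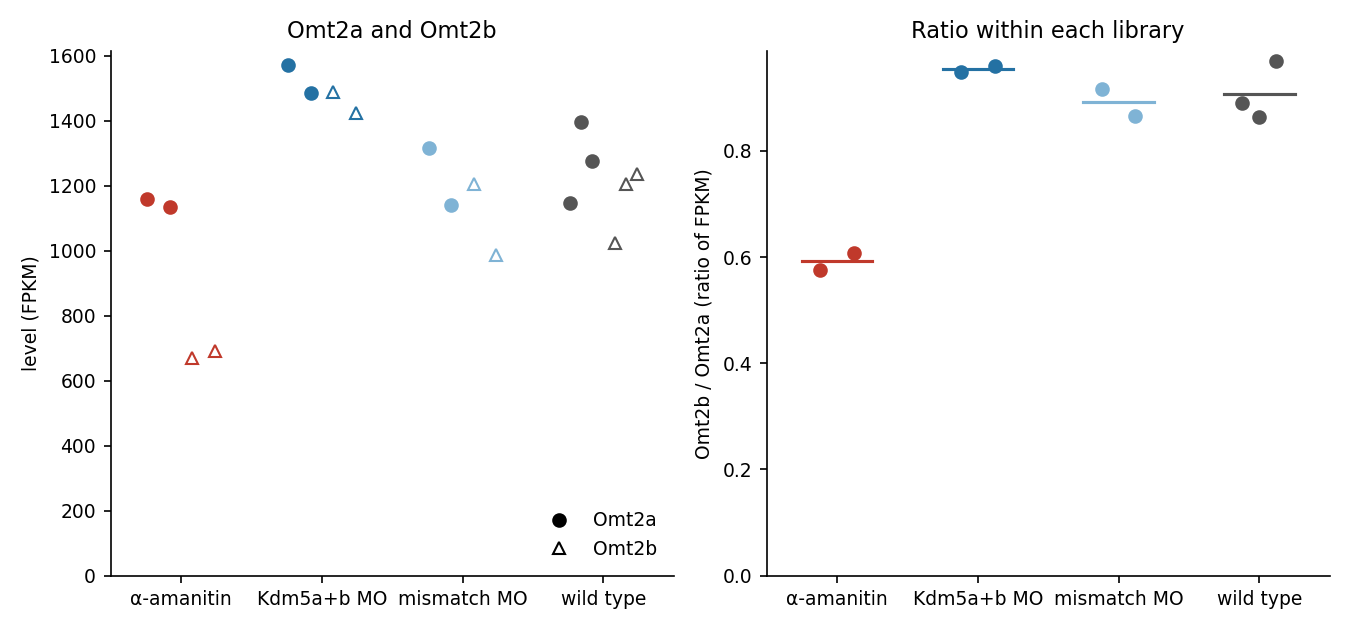
Left, level of Omt2a (filled circles) and Omt2b (open triangles) in FPKM in each library. Right, Omt2b divided by Omt2a within each library, with group means as lines; the 2 alpha-amanitin libraries are at 0.576 and 0.608 and the other 7 between 0.863 and 0.969.

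The 4 abundant genes were all higher in alpha-amanitin embryos than in any wild-type library, which is given as values because wild-type levels chose them. Higher ranges without overlap were found for 13.4% of all genes in this comparison. Gm1965, the non-coding RNA (chromosome 6, 89141005 to 89147385), was at 3416 and 3718 FPKM with alpha-amanitin, 1526 and 1866 with Kdm5a+b morpholino, 1102 and 1650 in mismatch controls and 1125, 873 and 1017 in wild type. Its alpha-amanitin mean was 3.55 times the wild-type mean, the widest gap among the 10 genes. Rbm38 (chromosome 2, 173020498 to 173034734) was at 2268 and 2032 FPKM with alpha-amanitin, 1657 and 1382 with Kdm5a+b morpholino, 1135 and 1125 in mismatch controls and 1521, 935 and 1066 in wild type. Wild-type replicate 1 stood with the Kdm5a+b morpholino libraries, and the alpha-amanitin mean was 1.83 times the wild-type mean. Spin1 (chromosome 13, 51100880 to 51152546) was at 1368 and 1446 FPKM with alpha-amanitin, 656 and 667 with Kdm5a+b morpholino, 661 and 803 in mismatch controls and 1071, 909 and 868 in wild type. The injected embryos of both kinds lay below wild type, and the alpha-amanitin mean was 1.48 times the wild-type mean. Ccdc6 (chromosome 10, 70097121 to 70193200) was at 1254 and 1285 FPKM with alpha-amanitin, 718 and 971 with Kdm5a+b morpholino, 682 and 925 in mismatch controls and 894, 840 and 914 in wild type. Outside alpha-amanitin its ranges overlapped in all groups, and the alpha-amanitin mean was 1.44 times that of wild type.

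Setting alpha-amanitin against mismatch controls takes no wild-type level into the difference, and these 4 genes were tested there. The wild-type libraries still enter the shared estimate of spread behind each SE and p. Injection is not matched, and the alpha-amanitin libraries are the same ones as before. In this comparison 23.9% of all genes passed, 2.36% as higher and 21.5% as lower (310 and 2827 genes, or 978 and 1519 after quantile normalization), and the median log2 change of all genes was -0.52. All 4 passed as higher. They were chosen with earlier results of these data known, so this count is a description and not independent support. The log2 change of Gm1965 was 1.40 (SE 0.21, adjusted p = 0.000804), that of Spin1 0.95 (SE 0.17, adjusted p = 0.00246), that of Rbm38 0.93 (SE 0.22, adjusted p = 0.0107) and that of Ccdc6 0.68 (SE 0.20, adjusted p = 0.0310). Of the genes taken by name, Omt2b passed as lower, with a log2 change of -0.68 (SE 0.17, adjusted p = 0.0131), which is -0.16 relative to the median of all genes. The oogenesins had log2 changes of 0.84 (Oog1, adjusted p = 0.208), 0.41 (Oog2, 0.603), 0.70 (Oog3, 0.0798) and 0.54 (Oog4, 0.429), and Omt2a of -0.09 (0.703); none of these 5 passed. Ranges did not overlap for Oog1, Oog3 and Oog4, all higher with alpha-amanitin, as for 17.2% of all genes, and for Omt2b, which was lower, as for 46.3%.

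Gm1965 and Spin1 passed whichever single library was left out. Rbm38 did not pass without alpha-amanitin replicate 1 (adjusted p = 0.0852) or mismatch replicate 2 (0.0502). Ccdc6 did not pass without alpha-amanitin replicate 1 (0.125), alpha-amanitin replicate 2 (0.151) or mismatch replicate 1 (0.184), nor did Omt2b without the same libraries (0.0987, 0.0850 and 0.0829). Without wild-type replicate 1, which enters through the shared spread, Oog3 passed (0.0410). The calls also depended on the processing. With no filter none of the 4 abundant genes passed (adjusted p = 0.144 for Spin1, 0.159 for Gm1965, 0.334 for Rbm38 and 0.359 for Ccdc6), nor did Omt2b (0.356). After quantile normalization Spin1 alone passed as higher, with log2 changes of 0.33 for Gm1965, 0.31 for Rbm38 and 0.37 for Ccdc6. Without the variance trend Gm1965 alone passed, and with only these 2 groups fitted Ccdc6 (0.0828) and Omt2b (0.0582) did not.

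**Figure D3:**
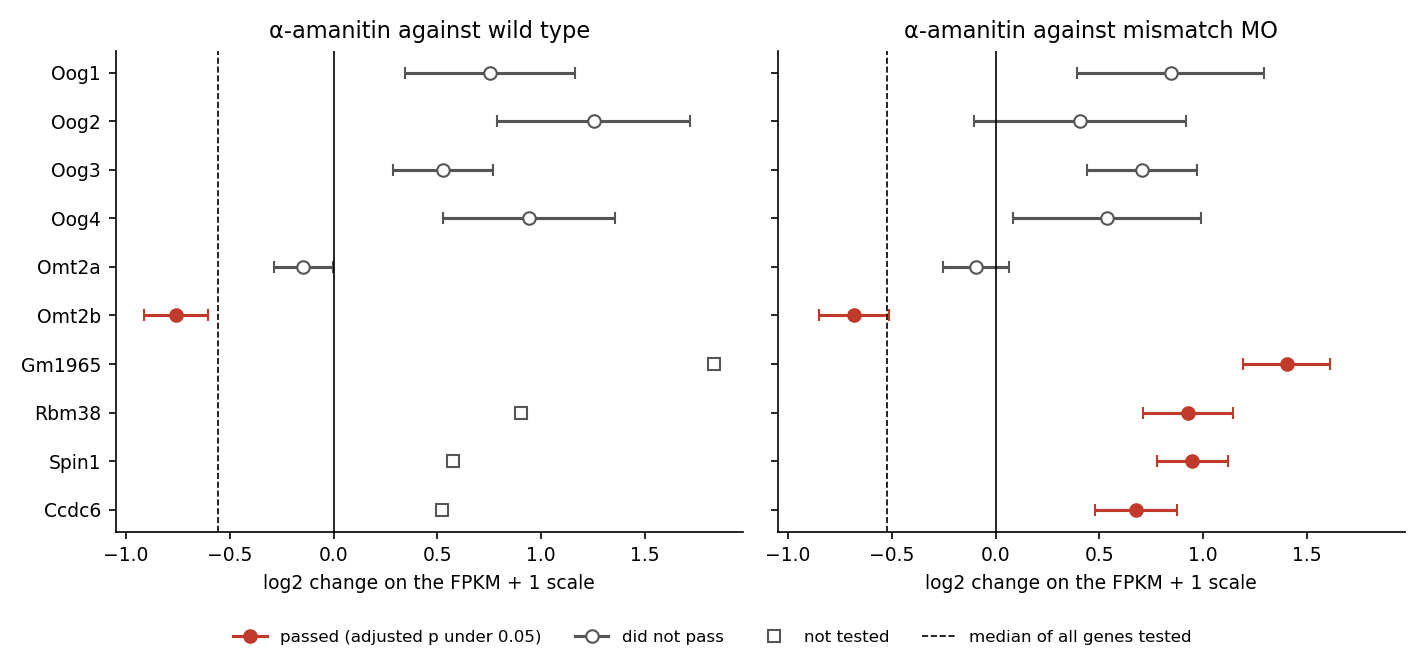
Log2 change on the FPKM + 1 scale (horizontal axis) of each gene with alpha-amanitin, against wild type on the left and against mismatch controls on the right; bars are 1 SE, filled red points passed, open circles did not, and open squares were not tested. Omt2b lies at -0.76 and -0.68, and Gm1965 farthest to the right at 1.83 and 1.40.

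The 100 genes with the highest wild-type mean, which include 7 of the 10 described here, were set beside them only in the comparison with mismatch controls, since wild-type levels chose this list too. Of the 100 genes, 30 passed as higher and 20 as lower, with a median log2 change of 0.47, against 2.36% and 21.5% of all genes and a median of -0.52.

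The Kdm5a+b morpholinos were directed against Kdm5a and Kdm5b, and the mRNA levels given above do not check the knockdown. Against mismatch controls 0% of the 13137 genes passed in limma, 414 had an unadjusted p under 0.05, and the smallest adjusted p was 0.280. None of the 10 genes passed. Omt2b and Omt2a were higher in both Kdm5a+b morpholino libraries than in either mismatch library, with log2 changes of 0.42 (SE 0.17, unadjusted p = 0.0308) and 0.32 (SE 0.16, unadjusted p = 0.0688), and so was Rbm38 (0.42, SE 0.22, unadjusted p = 0.0807). Ranges that did not overlap in this direction were seen for 16.5% of all genes. After quantile normalization the values for Omt2a and Omt2b were -0.02 and -0.04. For the other 7 genes the 2 ranges overlapped and the log2 changes ran from -0.30 (Oog2) to 0.32 (Gm1965).

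Mismatch controls against wild type set injected embryos against wild-type embryos for which no injection is stated. Again 0% of genes passed, 616 had an unadjusted p under 0.05, and the smallest adjusted p was 0.709. The 6 genes taken by name had overlapping ranges, with log2 changes from -0.18 (Oog3, SE 0.24) to 0.85 (Oog2, SE 0.47). Spin1 was the only one of the 10 whose ranges did not overlap, 661 and 803 FPKM in mismatch controls against 1071, 909 and 868 FPKM in wild type, and this is given with no test. Among all genes 8.85% had such non-overlapping lower ranges and 9.26% had higher ones.

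The oogenesins belong to the PRAME family, and its other members gave a wider spread. The tables held 37 other PRAME-family genes, of which 29 passed the filter. With alpha-amanitin against wild type 2 of the 29 (6.90%) passed as higher and 14 (48.3%) as lower, against 4.31% and 25.1% of all genes, and the median log2 change was -1.28. The 14 that fell were at 0 to 0.925 FPKM in the alpha-amanitin libraries and at 1.22 to 34.9 FPKM in wild type. Pramel6 was listed at 0 and 0 FPKM with alpha-amanitin against 16.8, 34.9 and 27.6 FPKM in wild type, and Pramef25 at 0 and 0 against 19.2, 11.3 and 17.7 FPKM. B020004J07Rik (0 and 0.219 FPKM against 23.2, 29.7 and 20.6 FPKM), Gm12794 (0.195 and 0.130 against 21.4, 31.4 and 18.7), Pramel7 (0 and 0.925 against 20.1, 24.0 and 17.5) and Gm13078 (0.560 and 0 against 11.7, 11.9 and 11.7) were likewise close to 0 with alpha-amanitin. All of these were present in wild type at levels like those of Oog1, Oog2 and Oog4 or above.

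Of the 3 family members with the highest wild-type levels, 1 passed, as higher, and 2 did not pass. Gm13023 was at 175 and 204 FPKM with alpha-amanitin against 153, 154 and 135 FPKM in wild type (log2 change 0.36, adjusted p = 0.313), and Gm10436 at 108 and 156 FPKM against 108, 98.0 and 75.3 FPKM (0.48, adjusted p = 0.174). C87414 rose, to 180 and 241 FPKM with alpha-amanitin against 123, 119 and 94.6 FPKM in wild type (log2 change 0.90, SE 0.22, adjusted p = 0.0122). The other gene that rose was Gm13103, named after its values were seen, at 33.3 and 42.8 FPKM with alpha-amanitin against 15.2, 12.1 and 10.8 FPKM in wild type (1.51, SE 0.31, adjusted p = 0.00390). Against mismatch controls 2 of the 29 (6.90%) passed as higher and 11 (37.9%) as lower, against 2.36% and 21.5% of all genes. The median log2 change was -1.58, against -0.52 for all genes. The 2 that passed as higher were C87414 (log2 change 1.04, adjusted p = 0.0110) and Gm13125 (2.45, adjusted p = 0.0477). Gm13103 did not pass there (0.40, adjusted p = 0.423), with mismatch controls at 26.7 and 30.1 FPKM. After quantile normalization 3 were higher and 8 lower in each comparison. None of the 29 passed with Kdm5a+b morpholino against mismatch controls or with mismatch controls against wild type.

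**Figure D4:**
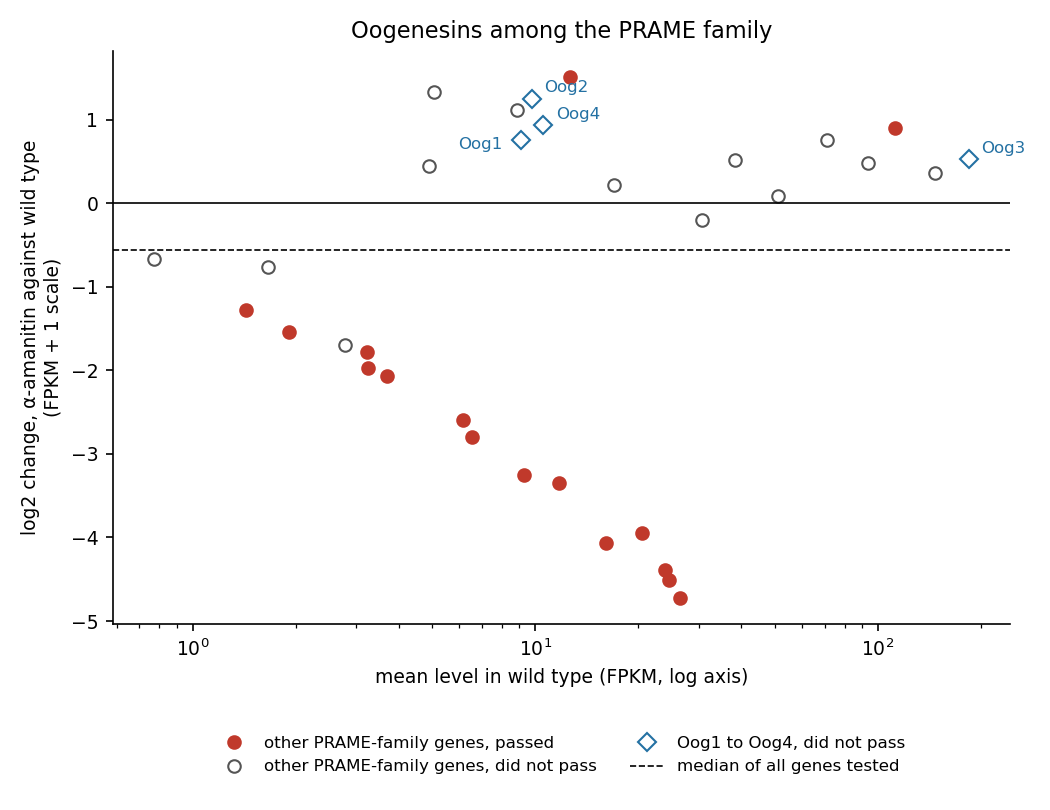
Log2 change with alpha-amanitin against wild type (vertical axis, FPKM + 1 scale) of Oog1 to Oog4 (diamonds) and the 29 other PRAME-family genes, by mean wild-type level in FPKM (log axis). The 14 genes that fell follow the lower edge, where the alpha-amanitin level is near 0 and the change is set by the wild-type level, and the oogenesins lie between 0.53 and 1.25.

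Regulators of the oocyte programme were looked up as a further list: Figla, Nobox, Lhx8, Sohlh1, Sohlh2, Taf4b and Foxo3. Of the 6 that passed the filter, 1 (16.7%) was higher and 2 (33.3%) lower with alpha-amanitin against wild type, with a median log2 change of 0.00. The shares of all genes were 4.31% and 25.1%, and a list of 6 is too short to set apart from them. Foxo3, a forkhead factor that restrains follicle activation, was at 242 and 315 FPKM with alpha-amanitin and at 131, 142 and 142 FPKM in wild type, with a log2 change of 0.99 (SE 0.22, adjusted p = 0.00696). Taf4b, a gonadal subunit of TFIID, and Sohlh1, a helix-loop-helix factor of early oocytes, changed by -1.08 (SE 0.32, adjusted p = 0.0262) and -1.94 (SE 0.63, adjusted p = 0.0395); neither passed after quantile normalization, where 0 of the 6 were lower. Lhx8, a homeobox factor, had a log2 change of -0.20 and did not pass. The near relatives of Spin1 (5 spindlin genes in the tables) and of Rbm38 (Rbm24) did not pass the filter, the highest of them being Spin2f with a wild-type mean of 0.515 FPKM.

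Neighbouring genes, with a start within 500 kb, gave a local background. Around Omt2a and Omt2b 13 genes were tested, of which 1, Ddx43, passed as lower with alpha-amanitin against wild type, and their median log2 change was 0.03. The other 12 did not pass, and under TPM or quantile normalization 0 of the 13 passed as lower. After quantile normalization 2 of the 13 passed as higher, with a median log2 change of 0.90. Around Oog2, Oog3 and Oog4 1 of 30 tested genes was higher and 12 were lower (median -0.60), or 4 higher and 6 lower after quantile normalization. Most of the 12 that were lower are also on the PRAME list above. These are Pramef25, Gm13078, Pramel1, Gm13128, Pramef17, Pramel4, Gm13083 and Pramef6. Gm13103, the 1 that was higher, is on that list too, so these counts are not separate from those of the family. Around Oog1 0 of 22 were higher and 13 lower (median -2.01), or 1 higher and 8 lower after quantile normalization. Over all genes 4.31% passed as higher and 25.1% as lower.

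For each of the 10 genes the most similar profile was sought among all tested genes, as the smallest root mean square difference of log2(FPKM + 1), centred per gene, over the 9 libraries. Spin1 had the closest partner, Usp9x, at 0.0773 log2 units, and Ccdc6 came next with Paip1 at 0.0868. Omt2b was nearest to Gm11889 (0.0991) and Omt2a to Esrp1 (0.117). Oog3 and Oog1 were both nearest to Zfyve26 (0.150 and 0.164), while Oog3 itself ranked 22 on the Oog1 list at 0.240. Rbm38 was nearest to Efcab6 (0.154), and Tcl1, an oocyte-expressed gene, lay at 0.167. Gm1965 was nearest to Dazap2 (0.169), Oog2 to 1700030J22Rik (0.203) and Oog4 to Nckap1l (0.224). These are descriptions over the same 9 libraries, among which the alpha-amanitin pair stood apart.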

How the data were processed

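RNA-seq values were the gene levels in FPKM, with lower and upper bounds, deposited by the authors as one table per library; Cufflinks and the build mm10 are named in the submitters' processing notes. Neither the settings nor the annotation are named there, and since these tables hold no counts the depth is unknown. From the deposited FPKM values, log2(FPKM + 1) was tested with limma 3.58.1 in R 4.3.3 (group only, empirical Bayes with trend, 5 residual degrees of freedom), for genes at 1 FPKM or more in at least 2 of 9 libraries, with Benjamini-Hochberg adjustment over 13137 genes; the code was tested on simulated data. The values are listed at 0 for some genes, which can be a failed estimate. Failed estimates were flagged for 0 and 1 genes in the 2 alpha-amanitin libraries and for 0 to 6 genes in the others. Promoters came from RefSeq (GRCm38.p6), and transcripts from GENCODE M21. Pairs of promoters were aligned with Biopython 1.88. The members and lists were chosen with earlier results of these data known. Named from the PRAME and regulator lists were the called genes (at most 6, by size of change) and the 3 with the highest wild-type mean; the rule covered the neighbour and abundance lists too, but these are given by counts, with single genes named. Alternatives were a pseudocount of 0.1, no filter, TPM, quantile normalization, a replicate block, only the 2 groups compared, no trend, and each library left out.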

Additional observations from a re-analysis of the deposited data

How the results depend on the processing

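Each result was recomputed under 16 other settings. With alpha-amanitin against wild type, genes passing as higher (566) numbered 1716 after quantile normalization, 371 with the replicate block, 339 with only the 2 groups fitted and 288 to 516 with single libraries left out; genes passing as lower (3299) numbered 1806 after quantile normalization and 2405 to 3168 with libraries left out. Of the 6 genes tested against wild type, 3 passed as higher after quantile normalization and 0 to 2 with libraries left out, and 0 passed as lower with no filter or without trend, against 1 to 1 with libraries left out. Against mismatch controls, genes passing as higher (310) numbered 978 after quantile normalization, 130 with 2 groups, 190 without trend and 103 to 380 with libraries left out; genes passing as lower (2827) numbered 1519 after quantile normalization and 1816 to 2941 with libraries left out. The 4 genes passing as higher there became 0 with no filter, 1 after quantile normalization, 1 without trend and 2 to 5 with libraries left out, and Omt2b passing as lower became 0 with no filter, with 2 groups and without trend, and 0 to 1 with libraries left out. With Kdm5a+b morpholino, 17 genes passed as higher and 10 as lower with no filter, and 0 to 3 and 0 to 1 with libraries left out. For mismatch controls against wild type, 11 passed as higher with no filter, and 0 to 1 and 0 to 3 with libraries left out. The cause of these shifts was not tested. Fitting the replicate number as a block changed no call of the 10 genes. The deviations of same-numbered libraries from their group means had a correlation of -0.05 to 0.04. In a group of 2 libraries these deviations are equal and opposite, so the correlation cannot tell whether same-numbered libraries were collected together.

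Directions turned only for log2 changes that had not passed. Under TPM, Omt2a was at 0.0061 (against wild type) and 0.017 (against mismatch controls) with alpha-amanitin, and Ccdc6 at -0.011 with Kdm5a+b morpholino. After quantile normalization Omt2a and Omt2b were at -0.015 and -0.044 with Kdm5a+b morpholino and at 0.12 and 0.091 in mismatch controls against wild type. With single libraries left out, the changes with alpha-amanitin against mismatch controls ranged from -0.16 to 0.97 (Oog2) and from -0.197 to 0.0085 (Omt2a). With Kdm5a+b morpholino they ranged from -0.34 to 0.58 (Oog1), -0.86 to 0.27 (Oog2), -0.44 to 0.35 (Oog4), -0.28 to 0.0023 (Spin1) and -0.15 to 0.29 (Ccdc6). In mismatch controls against wild type the ranges were -0.55 to 0.37 (Oog1), -0.33 to 0.038 (Oog3), -0.15 to 0.051 (Omt2a) and -0.22 to 0.067 (Omt2b).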
